A study of Mus musculus with 12 samples.

Results

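The whole hippocampus of C57BL/6 mice was compared between 18 and 6 months of age by RNA-seq of bulk tissue. The comparison took 6 of the 12 samples of the series, chosen by their labels, with 3 libraries of 18 months and 3 of 6 months. All mice were of the C57BL/6 strain, and the labels give these samples no transgene, deletion or treatment. Neither the sex nor whether each library stands for a different animal is given in the labels, so a p-value here reflects only library-to-library spread, part of which may be technical. RNA was extracted from the tissue with Trizol, reverse transcribed from the poly(A) tail, amplified as cDNA and made into libraries by tagmentation, which does not mark strand. The table held 14663 named genes, of which 13491 were at 1 or more in 3 or more libraries and were tested.

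The hippocampus is the cortical structure that forms memories of places and events. Its signal runs from granule cells of the dentate gyrus to pyramidal cells of CA3 and CA1, with GABA-releasing interneurons that set the timing of firing. Astrocytes clear glutamate, oligodendrocytes wrap axons in myelin and microglia are the resident macrophages. In rodents, ageing of this tissue is known for glial and complement activation, for a loss of newborn neurons and for altered calcium handling and excitability of neurons. A whole-tissue library mixes all these cells, so fewer cells of a type and less RNA per cell cannot be told apart.

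Levels below are the authors' normalized counts per library, always in the order replicate 1, 2 and 3. A log2 change is the 18 month mean minus the 6 month mean on the log2(normalized count + 1) scale, so it understates differences of weakly expressed genes, and it is given with its standard error (SE). Summed normalized counts of the 6 libraries ranged from 974126 to 1002529. The 18 month replicate 1 stood apart: 2657 genes were listed at 0 in it, against 842 to 1987 in the other 5 libraries, and it was separated from them on the first principal component, which held 30.1% of the variance. Its correlation with other libraries (log scale, across genes) lay between 0.794 and 0.831. Neuronal, astrocytic, oligodendrocytic and microglial marker lists all had signal in every library, as brain tissue of any region would have. The lists that name hippocampal cells had signal too: 879.4 to 1150 summed normalized counts for dentate granule cells and 3100 to 3318 for CA1 and CA3 pyramidal cells. Markers of neighbouring brain regions summed to 669.1 to 960.7. All 4 Y-linked genes examined had signal in all 6 libraries. Their means were all lower at 18 months (100%, beside 52.8% of all tested genes), and 1 of them had groups that did not overlap. Xist and Tsix were looked for but are not among the named genes.

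No gene passed the threshold. With limma's moderated test and Benjamini-Hochberg adjustment over all 13491 genes, 0 genes were higher and 0 lower at 18 months at an adjusted p under 0.05 (0% in each direction). The smallest adjusted p was 0.155, shared by Wdr7, Disp2 and the RNA helicase gene Ddx6. At an unadjusted p under 0.05, 288 genes (2.13%) were higher and 437 (3.24%) were lower; 675 of the tested genes would pass that threshold if no gene differed and the genes were independent. Genes whose 18 month values all lay above their 6 month values numbered 678 (5.03%), and 800 (5.93%) had all their 18 month values below. The mean was higher at 18 months for 47.2% of the tested genes and lower for 52.8%, with a median log2 change of -0.04. Every count for a gene group below is read beside these shares, and every difference named below missed the adjusted threshold, with adjusted p-values of 0.155 to 0.913 in limma's test for the genes given a log2 change.

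The genes with the smallest p among those lower at 18 months included membrane proteins, transporters and a hormone receptor. Disp2, a brain-expressed member of the dispatched family of membrane proteins, had 502, 431 and 435 normalized counts at 6 months and 218, 228 and 259.8 at 18 months. Its 18 month libraries lay close together and well below the other group, with a log2 change of -0.95 ± 0.16 (SE) and an adjusted p of 0.155 in limma's test. Wdr7, a WD repeat protein bound to the proton pump of synaptic vesicles, had 205, 291 and 208 normalized counts at 6 months and 101, 58.2 and 88.3 at 18 months. The groups did not overlap, and the difference was a log2 change of -1.52 ± 0.25 (SE). Nr3c1, the glucocorticoid receptor, had 98.2, 114 and 82.2 normalized counts at 6 months and 22.98, 39.1 and 21.9 at 18 months, with all 18 month libraries below the lowest 6 month library. Its difference was a log2 change of -1.81 ± 0.34 (SE), with an adjusted p of 0.334 in limma's test. Slc24a2, a potassium-dependent sodium/calcium exchanger of neurons, had 384, 429 and 404 normalized counts at 6 months and 268, 229 and 259.9 at 18 months, a log2 change of -0.68 ± 0.16 (SE).

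The other lower genes chosen by the same rule (non-overlapping groups, a level at or above the median gene, smallest unadjusted p) act in transport, sugar metabolism and RNA processing. Kcnab2, an auxiliary subunit of voltage-gated potassium channels, had 481, 517 and 354 normalized counts at 6 months and 261, 223 and 316 at 18 months. Slc1a1, the neuronal glutamate and cysteine transporter, had 232, 297 and 243 at 6 months and 156, 150.5 and 168 at 18 months. Both genes were separated between the groups, with log2 changes of -0.75 ± 0.19 and -0.69 ± 0.18. Pgm2l1, which makes glucose 1,6-bisphosphate in brain, had 198, 229.9 and 173 normalized counts at 6 months and 78.9, 80.6 and 142 at 18 months. Srsf7, a serine- and arginine-rich splicing factor, had 145, 148 and 149 normalized counts at 6 months and 61.0, 68.1 and 97.8 at 18 months; its 6 month libraries lay close together. Rfx3, a transcription factor of ciliary genes and a marker of dentate granule cells, had 129, 136 and 239 at 6 months and 56.8, 66.4 and 99.3 at 18 months. Log2 changes of these 3 genes were -1.03, -0.98 and -1.15. Gm28438 was lower too, with a log2 change of -0.79; it is an unprocessed pseudogene in a nuclear stretch copied from mitochondrial DNA, so its reads cannot be told with certainty from mitochondrial mRNA.

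**Figure D1:**
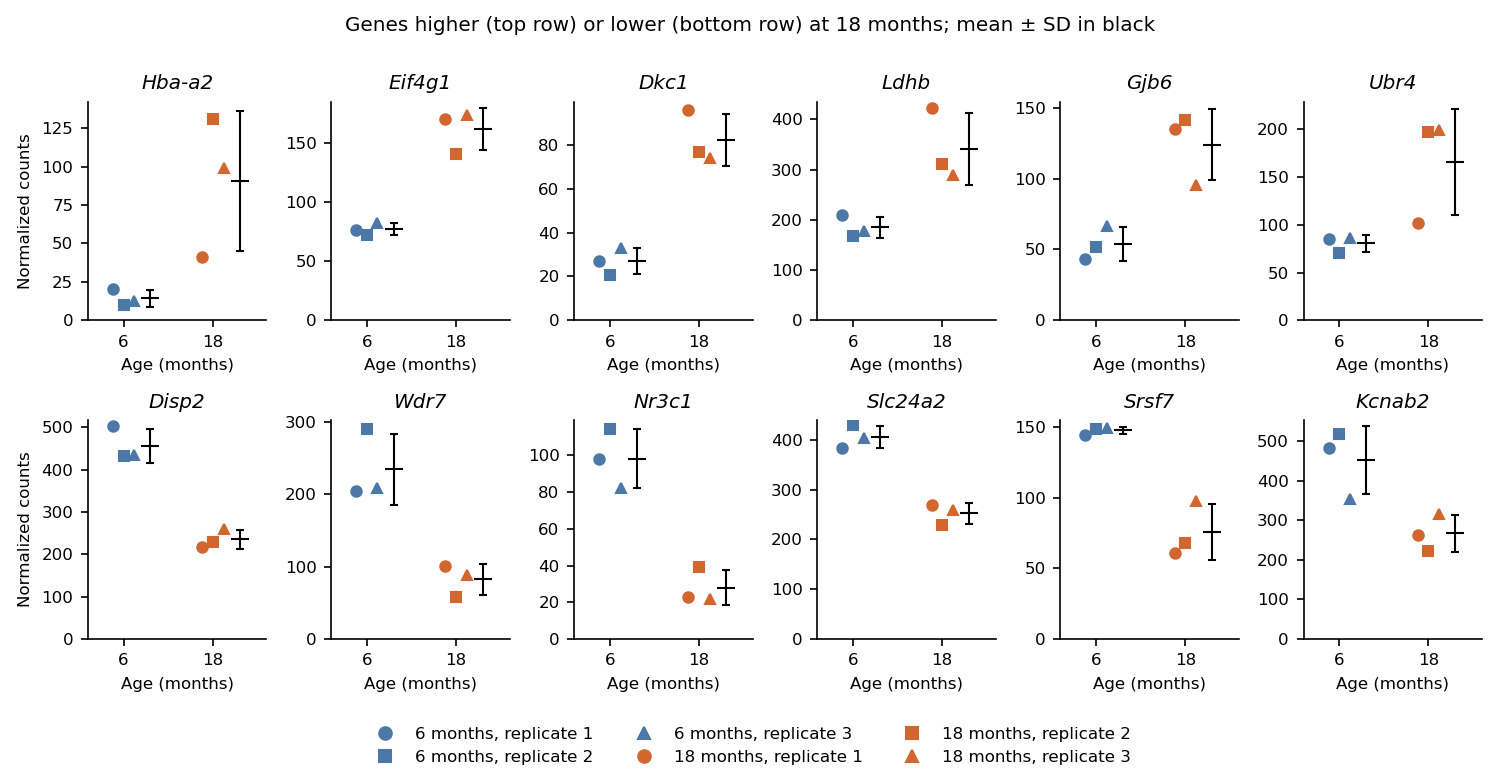
Normalized counts of 12 genes in each library (vertical axis, starting at 0) by age in months, with replicates marked by shape and the mean ± SD of each group of 3 in black. All 12 genes were chosen for groups that do not overlap; Hba-a2 is spread widely at 18 months, and Disp2 and Slc24a2 are tight in both groups.

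Among genes higher at 18 months, those chosen by the rule included 2 globin genes and genes of translation, RNA modification and energy metabolism. Eif4g1, the scaffold of the cap-binding complex that starts translation, had 76.7, 72.6 and 82.5 normalized counts at 6 months and 171, 141 and 174 at 18 months. All 18 month libraries lay well above all 6 month libraries, with a log2 change of 1.05 ± 0.22 (SE) and an adjusted p of 0.464 in limma's test. Dkc1, the pseudouridine synthase of small nucleolar ribonucleoproteins and telomerase, had 27.0, 20.9 and 33.1 normalized counts at 6 months and 96.0, 77.0 and 74.1 at 18 months, a log2 change of 1.59 ± 0.34 (SE). Ldhb, the heart-type subunit of lactate dehydrogenase, had 209, 167 and 178 normalized counts at 6 months and 422, 311 and 290.2 at 18 months, a log2 change of 0.87 ± 0.19 (SE). The 18 month replicate 1, the library that stood apart, was the highest of its group for Dkc1 and Ldhb and was not the highest for Eif4g1. Without it the log2 change of Ldhb was 0.70. Gjb6, which encodes the astrocyte gap junction protein connexin 30, had 43.2, 51.6 and 66.5 normalized counts at 6 months and 135, 142 and 95.4 at 18 months, a log2 change of 1.19 ± 0.28 (SE). Ipo4, a nuclear import receptor, had 109, 79.0 and 81.0 at 6 months and 187, 201 and 142 at 18 months. Tbc1d10b, which switches off Rab GTPases, had 7.25, 20.1 and 15.1 at 6 months and 62.1, 51.5 and 38.6 at 18 months. Ubr4, a ubiquitin ligase of the N-degron pathway, had 85.1, 70.4 and 86.6 at 6 months and 102, 197 and 199 at 18 months. The groups did not overlap in any of these 3 genes, and their log2 changes were 0.97, 1.85 and 0.97.

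Globin genes are transcribed mainly in developing red blood cells, and their mRNA can reach a tissue in blood. Of the 4 in the table, 3 were higher in every 18 month library. Hba-a2 had 20.4, 9.65 and 12.7 normalized counts at 6 months and 41.4, 131 and 98.9 at 18 months, a log2 change of 2.49 ± 0.49 (SE). Hba-a1 had 6.83, 5.43 and 7.54 normalized counts at 6 months and 29.9, 58.4 and 38.8 at 18 months, a log2 change of 2.47 ± 0.59 (SE). Hbb-bs had 19.7, 26.9 and 10.7 normalized counts at 6 months and 32.3, 111 and 74.1 at 18 months, a log2 change of 1.79 ± 0.51 (SE). For each of these 3 genes every 18 month library lay above every 6 month library, and the 18 month replicate 2 was the highest. Adjusted p-values in limma's test were 0.405, 0.665 and 0.877. The fourth, Hbb-bt, had 7.93, 0 and 0 at 6 months and 0, 17.2 and 5.73 at 18 months, with overlap. Summed over the 4 globins, the libraries held 54.8, 41.9 and 31.0 normalized counts at 6 months and 104, 318 and 218 at 18 months. The part that the blood left in the tissue had in these values was not tested. The blood list held 8 tested genes, of which 4 were above without overlap: these 3 globins and Ighm, the immunoglobulin mu chain, at 13.8, 13.6 and 12.7 at 6 months and 35.1, 18.8 and 31.1 at 18 months. The other members, Hbb-bt, Ccr2, Alas2 and S100a8, overlapped.

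The promoters of the globin genes are shown for the motifs that they have in common. All 4 globin genes of the table matched RefSeq promoters (build GRCm38.p6). The 250 bases before the transcription start are printed 5′ to 3′ on the gene's strand, and capitals mark 3 motifs. The first from the 5′ end is GATAA, the core of the site that GATA transcription factors bind. The middle motif is CCAAT, a general promoter element, and the last is ATATAA, a form of the box that positions the transcription start. Hba-a2 lies on the forward strand at chr11:32296242-32296491, and Hbb-bs on the reverse strand at chr7:103827929-103828178.
Hba-a2: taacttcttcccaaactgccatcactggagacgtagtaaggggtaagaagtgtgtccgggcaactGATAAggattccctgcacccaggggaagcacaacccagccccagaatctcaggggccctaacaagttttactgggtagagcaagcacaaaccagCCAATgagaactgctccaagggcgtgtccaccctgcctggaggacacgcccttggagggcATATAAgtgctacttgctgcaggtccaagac
Hbb-bs: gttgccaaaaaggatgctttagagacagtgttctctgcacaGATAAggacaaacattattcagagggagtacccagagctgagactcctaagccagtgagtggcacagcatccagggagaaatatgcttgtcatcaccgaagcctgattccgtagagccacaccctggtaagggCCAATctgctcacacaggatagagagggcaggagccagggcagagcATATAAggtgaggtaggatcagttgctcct
Each of the 3 motifs occurred once in both sequences, with first bases 185, 91 and 31 bases before the start in Hba-a2 and 209, 76 and 30 in Hbb-bs. Hba-a1 held the same 3 motifs, and so did Hbb-bt, whose levels overlapped between ages. In Hbb-bt, CCAAT also occurred 2 times on the opposite strand. Searched on both strands over all 32851 RefSeq promoter windows, GATAA was present in 22.6%, CCAAT in 33.8% and ATATAA in 9.1%. The full RefSeq windows of Hba-a1 and Hba-a2, each 300 bases long and reaching past the start, share a run of 297 identical bases, and their coding sequences are known to be near copies, so the split of reads between both genes is uncertain. A motif match describes these letters and shows no binding.

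Neuronal markers were higher at 18 months more often than lower. Of 17 tested neuronal markers, 12 were higher and 5 lower, with 3 above without overlap (17.6%, beside 5.03% of all genes) and 1 below; the median log2 change was 0.13, and 0.04 without the 18 month replicate 2. Rbfox3, the neuronal splicing regulator NeuN, had 179.5, 143 and 117 normalized counts at 6 months and 233, 275 and 184 at 18 months, a log2 change of 0.66 ± 0.22 (SE). Camk2a, the alpha subunit of the kinase CaMKII, had 7986, 6904 and 7519.5 normalized counts at 6 months and 9209, 8897 and 8408 at 18 months, a log2 change of 0.24 ± 0.11 (SE); all 18 month libraries were higher, by a small factor. Snap25, a SNARE protein of synaptic vesicle fusion, had 3815, 3520.1 and 3404 at 6 months and 3382, 3013 and 3777 at 18 months, with overlapping groups. Thy1, a neuronal surface protein, had 138, 128 and 106 at 6 months and 172, 153 and 145 at 18 months, without overlap.

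Granule and pyramidal cell markers lay in both directions. Of 13 granule cell markers, 5 were higher and 8 lower. C1ql2, a synaptic organiser of mossy fibres, had 102, 118 and 116 normalized counts at 6 months and 183, 175 and 129.7 at 18 months, a log2 change of 0.52 ± 0.22 (SE), without overlap. Prox1, the transcription factor of granule cell identity, had 69.4, 53.7 and 51.8 at 6 months and 152, 100.2 and 56.1 at 18 months; the 18 month replicate 3 lay within the other group, and the log2 change of 0.71 was 0.37 without replicate 1. Together with the lower Rfx3, this left the list with no common direction. Of 15 pyramidal markers, 6 were higher and 9 lower, and 1, Lynx1, a modulator of nicotinic receptors, was separated, at 331, 323 and 375 at 6 months and 276, 275 and 284 at 18 months. Wfs1 of CA1 cells had 207, 82.1 and 124 at 6 months and 99.1, 112 and 124 at 18 months, and Man1a had 24.96, 43.4 and 33.6 at 6 months and 31.9, 11.3 and 22.5 at 18 months; both overlapped.

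Interneuron markers split by gene. Of 18 tested, 9 were higher and 9 lower. Reln, the secreted protein of a subset of interneurons, had 12.2, 25.1 and 55.9 normalized counts at 6 months and 3.82, 7.14 and 9.23 at 18 months, a log2 change of -1.87 ± 0.74 (SE), without overlap. Calb2, which encodes calretinin and marks a class of interneurons and immature granule cells, went the other way with 7.91, 31.2 and 34.1 normalized counts at 6 months and 53.8, 41.6 and 45.9 at 18 months, a log2 change of 1.15 ± 0.53 (SE), which became 0.51 without the 6 month replicate 1. Lhx6, a transcription factor of interneurons from the medial ganglionic eminence, had 9.87, 23.4 and 24.7 at 6 months and 0, 12.1 and 1.55 at 18 months and overlapped by 1 library. Gad1, an enzyme that makes GABA, had 399, 385 and 423 at 6 months and 394, 307 and 395 at 18 months. Its paralog Gad2 had 101, 95.2 and 133 at 6 months and 97.2, 165 and 136 at 18 months, and both overlapped. Of 15 markers of neural progenitors and newborn neurons, 11 were higher and 4 lower. Dcx, the microtubule protein of migrating neuroblasts, had 21.3, 15.6 and 7.56 normalized counts at 6 months and 7.21, 10.8 and 8.35 at 18 months, and Sox11 had 31.0, 50.0 and 46.5 at 6 months and 52.1, 53.3 and 62.7 at 18 months. Calb2 is counted in both lists.

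Glial markers differed by cell type. Astrocyte markers were higher in 12 of 20. Gfap, the intermediate filament of astrocytes, had 502, 454 and 477 normalized counts at 6 months and 486, 703 and 894 at 18 months, a log2 change of 0.50 ± 0.19 (SE); replicates 2 and 3 at 18 months were above all 6 month libraries and replicate 1 was not, and the log2 change was 0.29 without replicate 3. Glul, glutamine synthetase, was lower, at 648, 707 and 636 at 6 months and 669, 425 and 411 at 18 months, a log2 change of -0.44 ± 0.18 (SE), again overlapping by replicate 1. Apoe, the lipid carrier secreted by astrocytes and by activated microglia, had 3018, 2829 and 3484 normalized counts at 6 months and 3537, 4172 and 3672 at 18 months, a log2 change of 0.29 ± 0.12 (SE), with all 18 month libraries above. Aldh1l1, a folate enzyme used as an astrocyte marker, had 31.2, 66.0 and 40.6 at 6 months and 29.0, 44.4 and 70.2 at 18 months, with overlapping groups. Of 15 reactive astrocyte genes, 7 were higher and 8 lower. Vim, which encodes vimentin, had 32.7, 9.39 and 23.5 at 6 months and 8.35, 61.1 and 11.0 at 18 months.

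Oligodendrocyte markers were higher in 14 of 22 (63.6%, beside 47.2% of all genes), with 0 above and 1 below without overlap. Precursor markers were lower in 10 of 13 (76.9%, beside 52.8% of all genes), with 0 below and 1 above without overlap. Mbp, myelin basic protein, had 4172, 3347 and 3609 at 6 months and 3837, 3734 and 4491 at 18 months, with overlapping groups. Mobp, another myelin protein, had 1487, 1308 and 1196 normalized counts at 6 months and 1644, 1454 and 1685 at 18 months, a log2 change of 0.26 ± 0.13 (SE), and Ugt8a, which makes the myelin lipid galactosylceramide, had 96.0, 73.6 and 53.1 at 6 months and 44.9, 48.8 and 45.7 at 18 months, a log2 change of -0.62 ± 0.32 (SE). Pdgfra, the growth factor receptor of precursors, had 33.9, 45.3 and 25.1 at 6 months and 27.3, 22.5 and 27.5 at 18 months. Cspg4, the proteoglycan NG2, had 18.6, 0 and 8.18 at 6 months and 0, 2.48 and 0 at 18 months. Gpr17, a receptor of committed precursors, had 46.1, 35.8 and 47.9 at 6 months and 5.39, 30.8 and 37.2 at 18 months, a log2 change of -1.15 ± 0.62 (SE), or -0.33 without the 18 month replicate 1. Tnr, which encodes tenascin R, was higher without overlap, at 70.3, 79.2 and 53.8 at 6 months and 95.4, 89.2 and 102 at 18 months, a log2 change of 0.50 ± 0.26 (SE). The precursor list's median log2 change was -0.38. It was -0.82 without the 18 month replicate 2 and -0.26 without the 18 month replicate 3.

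Microglial genes were higher in the older tissue more often than lower. Their summed level did not overlap between groups, which also held for the neuron, activated microglia and blood lists. Such sums are weighted to abundant members, among them Camk2a for neurons, and Apoe and Fth1 for activated microglia. The sum over the microglial list was 1146, 1069 and 998.8 normalized counts at 6 months and 1275, 1299 and 1338 at 18 months. Of 22 markers 15 were higher and 7 lower, and 4 (18.2%, beside 5.03% of all genes) lay above without overlap. The median log2 change was 0.25, and 0.14 without the 6 month replicate 2. Ctss, the protease cathepsin S, had 111, 95.6 and 119.8 normalized counts at 6 months and 167, 159.6 and 165 at 18 months, a log2 change of 0.59 ± 0.21 (SE). C1qc, a subunit of the first complement component, had 47.7, 42.5 and 26.5 at 6 months and 78.8, 99.7 and 42.8 at 18 months. C1qb, another subunit, had 123, 52.0 and 85.1 at 6 months and 125, 115 and 136 at 18 months, and both overlapped by 1 library of 18 months. Tmem119, a surface protein of homeostatic microglia, had 41.2, 18.1 and 46.4 at 6 months and 59.2, 62.1 and 54.3 at 18 months, without overlap, and P2ry12, their ATP receptor, had 45.6, 34.5 and 42.2 at 6 months and 48.5, 44.1 and 50.6 at 18 months. Siglech, a lectin of microglia, was the 1 marker below without overlap, at 52.0, 45.6 and 30.3 at 6 months and 8.77, 28.2 and 22.2 at 18 months, a log2 change of -1.18 ± 0.52 (SE). Without the 18 month replicate 1 its log2 change was -0.71. Of 18 genes of activated microglia, 12 were higher, among them Fth1, the ferritin heavy chain, at 4149, 3245 and 3603 at 6 months and 4447, 4358 and 4354 at 18 months, and Lyz2, lysozyme, at 19.0, 20.2 and 19.98 at 6 months and 35.8, 32.0 and 31.1 at 18 months, both without overlap. Spp1, which encodes osteopontin, had 13.8, 12.9 and 26.3 at 6 months and 8.99, 56.0 and 15.6 at 18 months. The median log2 change of the activated microglia list was 0.12, and -0.005 without the 18 month replicate 2. The sum of the blood list was above in the same 3 libraries, and its part in the microglial values was not tested.

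Vessel, meningeal and ependymal lists showed no common direction. Endothelial markers were lower in 13 of 20, with 0 of them separated in either direction. Cldn5 of the tight junctions had 135, 105 and 172 at 6 months and 139.8, 195 and 151 at 18 months, and Pecam1, an adhesion molecule, had 18.3, 1.76 and 23.1 at 6 months and 13.9, 22.4 and 16.4 at 18 months. Mural cell markers were higher in 5 and lower in 6 of 11, with 1 separated in each direction. The one above, Kcnj8, a potassium channel of pericytes, had 0, 0 and 0 at 6 months and 5.43, 1.20 and 2.35 at 18 months, so it was listed at 0 at 6 months. The one below, Pdgfrb, a growth factor receptor, had 32.6, 25.05 and 26.5 at 6 months and 19.8, 23.4 and 19.4 at 18 months. Rgs5, a regulator of G protein signalling, had 119, 151 and 128 at 6 months and 73.6, 108 and 184 at 18 months. The meningeal collagen gene Col1a1 had 12.4, 3.63 and 6.39 at 6 months and 3.64, 42.0 and 2.62 at 18 months. Its partner chain Col1a2 had 8.13, 10.5 and 14.6 at 6 months and 7.05, 25.4 and 9.12 at 18 months, and the 18 month replicate 2 was highest for both. Foxj1, the transcription factor of motile cilia, had 4.69, 9.02 and 10.8 at 6 months and 3.59, 6.02 and 6.98 at 18 months. Ccdc153, another gene of ciliated ependymal cells, had 11.4, 5.44 and 12.7 at 6 months and 10.5, 0 and 1.52 at 18 months. Tcf7l2, a marker of the neighbouring thalamus, had 11.7, 52.98 and 17.8 at 6 months and 14.2, 45.9 and 31.0 at 18 months. Lef1, from the same Wnt-responsive family, had 3.75, 19.8 and 11.4 at 6 months and 5.14, 14.5 and 6.80 at 18 months, and both overlapped between ages.

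**Figure D2:**
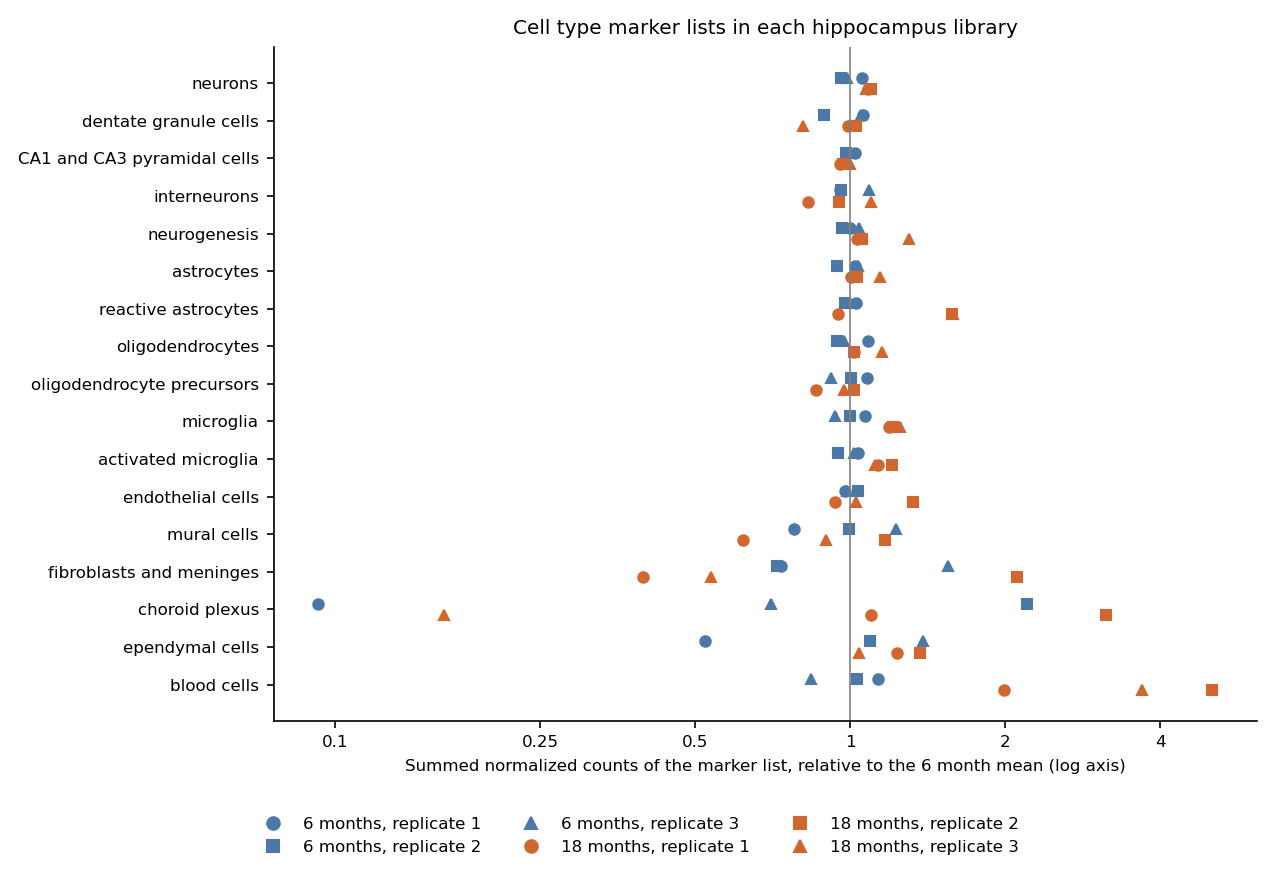
Summed normalized counts of each cell type marker list in each library, divided by the mean of the 6 month libraries (log axis; points are libraries, coloured by age and shaped by replicate). The neuron, microglia, activated microglia and blood lists lie above the 6 month libraries in all 18 month libraries. A sum is weighted to its most abundant members, such as Camk2a for neurons, and Apoe and Fth1 for activated microglia. The choroid plexus list varies most within a group.

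Choroid plexus genes varied between libraries more than between ages. This epithelium secretes cerebrospinal fluid and lies against the hippocampus, and its markers were at 395.5, 9427 and 2993 summed normalized counts at 6 months and 4676, 13380 and 694 at 18 months. Ttr, the thyroid hormone carrier it secretes, had 74.8, 6590.3 and 2192 normalized counts at 6 months and 3364, 10458 and 208 at 18 months; libraries of one age differed from each other more than the ages did. The median log2 change of the list was 0.45, but -0.34 without the 6 month replicate 1 and -0.30 without the 18 month replicate 2. Folr1, a folate receptor, had 2.76, 33.0 and 14.8 at 6 months and 51.2, 125 and 7.35 at 18 months. Ttr was highest in the 18 month replicate 2, the library with the lowest share of mitochondrial mRNA. Genes such as Igfbp2, at 22.1, 90.4 and 80.9 at 6 months and 47.0, 307 and 46.4 at 18 months, were highest in that library too. What part the choroid plexus had in other differences was not tested.

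**Figure D3:**
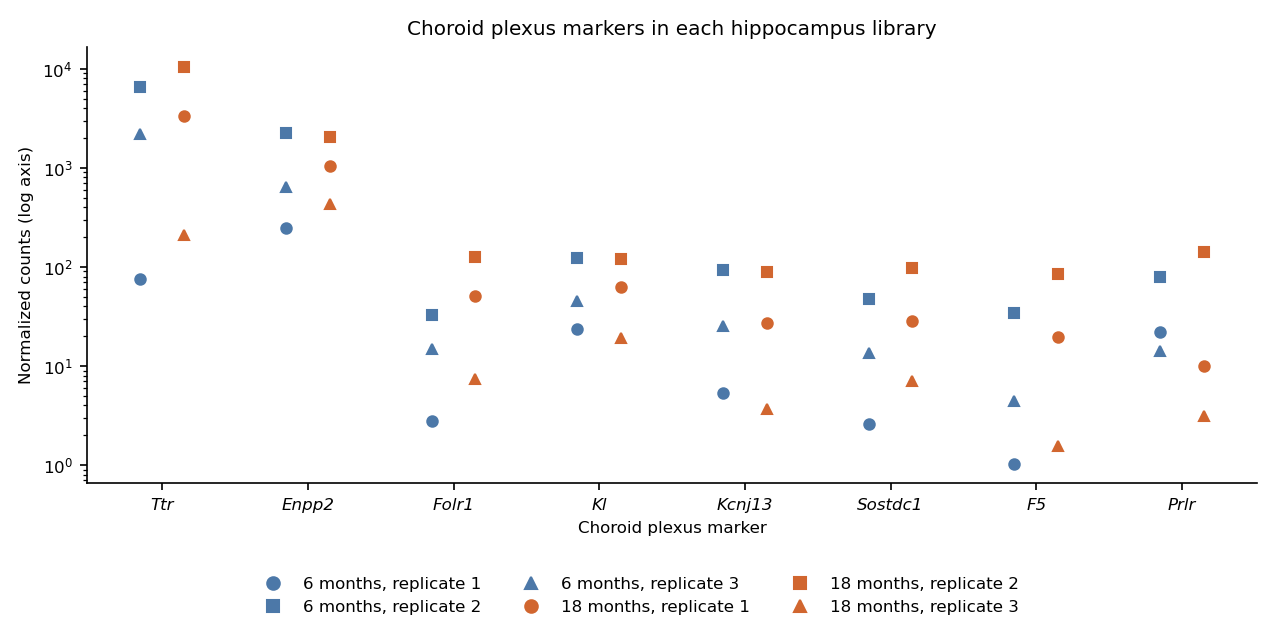
Normalized counts (log axis) of 8 choroid plexus markers in each of the 6 libraries, coloured by age and shaped by replicate. For every marker shown the 18 month replicate 2 or the 6 month replicate 2 is the highest library.

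Ion channel genes of neurons were lower more often than higher. Sodium and calcium channel genes were lower in 17 of 26, with 4 (15.4%, beside 5.93% of all genes) below without overlap and 0 above. Scn1a, the sodium channel of fast-spiking interneurons, had 119, 94.7 and 115 normalized counts at 6 months and 49.0, 47.6 and 89.8 at 18 months, a log2 change of -0.86 ± 0.30 (SE). Cacna1b, the pore of N-type calcium channels, had 99.8, 107 and 64.0 normalized counts at 6 months and 24.1, 71.7 and 32.6 at 18 months, a log2 change of -1.18 ± 0.40 (SE), overlapping by replicate 2 at 18 months. Scn3b, an auxiliary subunit, had 295, 314 and 357 at 6 months and 248, 242 and 258 at 18 months, a log2 change of -0.36 ± 0.16 (SE), without overlap. Potassium channel genes were lower in 26 of 43, with 5 (11.6%) below and 2 (4.65%) above without overlap. Their median log2 change was -0.12 (-0.03 without the 18 month replicate 1). Kcna2, an axonal Kv1 channel to which Kcnab2 binds, had 113, 110.5 and 102 normalized counts at 6 months and 50.3, 48.6 and 70.4 at 18 months, a log2 change of -0.95 ± 0.27 (SE). Kcnb2, a delayed rectifier, had 47.5, 42.1 and 44.4 at 6 months and 8.56, 25.7 and 6.91 at 18 months, a log2 change of -1.85 ± 0.56 (SE), and the groups did not overlap.

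Receptors and synaptic proteins followed no single direction. Glutamate receptor genes were lower in 11 of 20, and GABA and glycine receptor genes in 9 of 19. Gria2, the AMPA receptor subunit that blocks calcium entry, had 963, 1059 and 1058 normalized counts at 6 months and 886, 887 and 854 at 18 months, a log2 change of -0.23 ± 0.12 (SE). Grm5, a postsynaptic metabotropic receptor, had 185, 242 and 202 at 6 months and 162, 115 and 171 at 18 months, a log2 change of -0.50 ± 0.21 (SE), and Grin3a, an NMDA receptor subunit, had 30.5, 47.9 and 47.7 at 6 months and 19.1, 15.6 and 28.9 at 18 months, a log2 change of -0.97 ± 0.46 (SE). All 3 were below without overlap. Without the 18 month replicate 2 the log2 change of Grm5 was -0.32. Grm8, at a low level, was above, at 0, 2.84 and 5.02 at 6 months and 10.05, 23.5 and 9.09 at 18 months. Grin2b, the NMDA receptor subunit of early synapses, had 497, 313 and 552 at 6 months and 214, 316 and 564 at 18 months, with overlap. Of the scaffold proteins, Homer1 had 61.5, 51.6 and 53.2 at 6 months and 45.1, 20.4 and 27.4 at 18 months, a log2 change of -0.89 ± 0.39 (SE), and Homer2 had 62.0, 19.6 and 44.3 at 6 months and 126, 64.998 and 79.7 at 18 months, a log2 change of 1.18 ± 0.41 (SE), so 2 paralogs differed in direction; without the 6 month replicate 2 the log2 change of Homer2 was 0.72. Gabra2, a GABA receptor subunit, had 72.1, 52.5 and 91.6 at 6 months and 43.1, 22.7 and 40.4 at 18 months, a log2 change of -1.02 ± 0.37 (SE), and Gabra3 had 36.1, 4.93 and 42.8 at 6 months and 46.8, 48.5 and 53.2 at 18 months, a log2 change of 1.25 ± 0.64 (SE); for Gabra3 the value was 0.32 without the 6 month replicate 2.

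Vesicle release genes were lower in 22 of 34 (64.7%, beside 52.8% of all genes). Without overlap, 4 lay below (11.8%, beside 5.93% of all genes) and 1 above (2.94%, beside 5.03%). Unc13b, a vesicle priming factor, had 18.8, 36.5 and 26.1 normalized counts at 6 months and 3.39, 10.5 and 7.12 at 18 months, a log2 change of -1.88 ± 0.69 (SE). Rims2, which tethers calcium channels at the active zone, had 15, 17.8 and 19.1 at 6 months and 0, 2.44 and 3.92 at 18 months, and Vamp1, a vesicle SNARE, had 185, 206 and 156 at 6 months and 99.4, 116 and 159 at 18 months, a log2 change of -0.56 ± 0.23 (SE). Rims2 was below without overlap and listed at 0 in the 18 month replicate 1. Immediate early genes were lower in 17 of 28 tested. Fos, the activity-induced transcription factor, had 29.5, 92.5 and 31.7 at 6 months and 50.4, 60.9 and 22.2 at 18 months, and Arc, which is translated in dendrites after activity, had 287, 365 and 209 at 6 months and 343, 188 and 176 at 18 months. Both overlapped between ages. Bdnf, the neurotrophin, had 60.1, 53.8 and 48.6 at 6 months and 120.1, 66.7 and 56.4 at 18 months.

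Mitochondrially encoded mRNAs were lower in 12 of 13, which is 92.3% beside 52.8% of all genes, and 4 lay below without overlap (30.8%). The circular mitochondrial DNA encodes 13 subunits of the respiratory chain, whose mRNAs are cut from shared precursor transcripts, so the genes are not independent of each other. mt-Nd1 of complex I had 10065, 8111 and 8598 normalized counts at 6 months and 5886, 4128 and 7727 at 18 months, a log2 change of -0.63 ± 0.18 (SE). mt-Nd2 had 2161, 1806 and 2078 normalized counts at 6 months and 1451, 1092 and 1707 at 18 months, a log2 change of -0.53 ± 0.16 (SE), and mt-Nd5 had 4093, 3569 and 3659.9 at 6 months and 3366, 2128 and 2855 at 18 months, a log2 change of -0.46 ± 0.15 (SE). All 3 were below without overlap, and the 18 month replicate 2 was the lowest library each time. Without it their log2 changes were -0.40, -0.35 and -0.28. mt-Nd4 had 6567, 5000.2 and 6169 at 6 months and 4198, 3384 and 5422 at 18 months, with overlap. The 7 complex I mRNAs were all lower, with a median log2 change of -0.46, against -0.37 for all 13 mRNAs; without the 18 month replicate 2 the latter was -0.17. Mitochondrial mRNAs made up 7.87%, 6.44% and 7.07% of the summed normalized counts at 6 months and 5.81%, 3.91% and 7.06% at 18 months, so replicate 3 at 18 months was not low. The 18 month replicate 2, with the lowest share, also held the most choroid plexus RNA. Summed choroid plexus markers were at 395.5, 9427 and 2993 normalized counts at 6 months and 4676, 13380 and 694 at 18 months. Within each age, the mitochondrial share fell in the order in which these sums rose. The part of the choroid plexus in this difference was not tested. Nuclear genes of oxidative phosphorylation did not share the direction: 45 of 73 were higher. Cycs, cytochrome c, had 313, 192 and 272 at 6 months and 183, 144 and 203 at 18 months, a log2 change of -0.54 ± 0.22 (SE), and Ndufa13, a complex I subunit, had 216, 210.2 and 287 at 6 months and 269, 379 and 308 at 18 months, a log2 change of 0.42 ± 0.19 (SE).

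**Figure D4:**
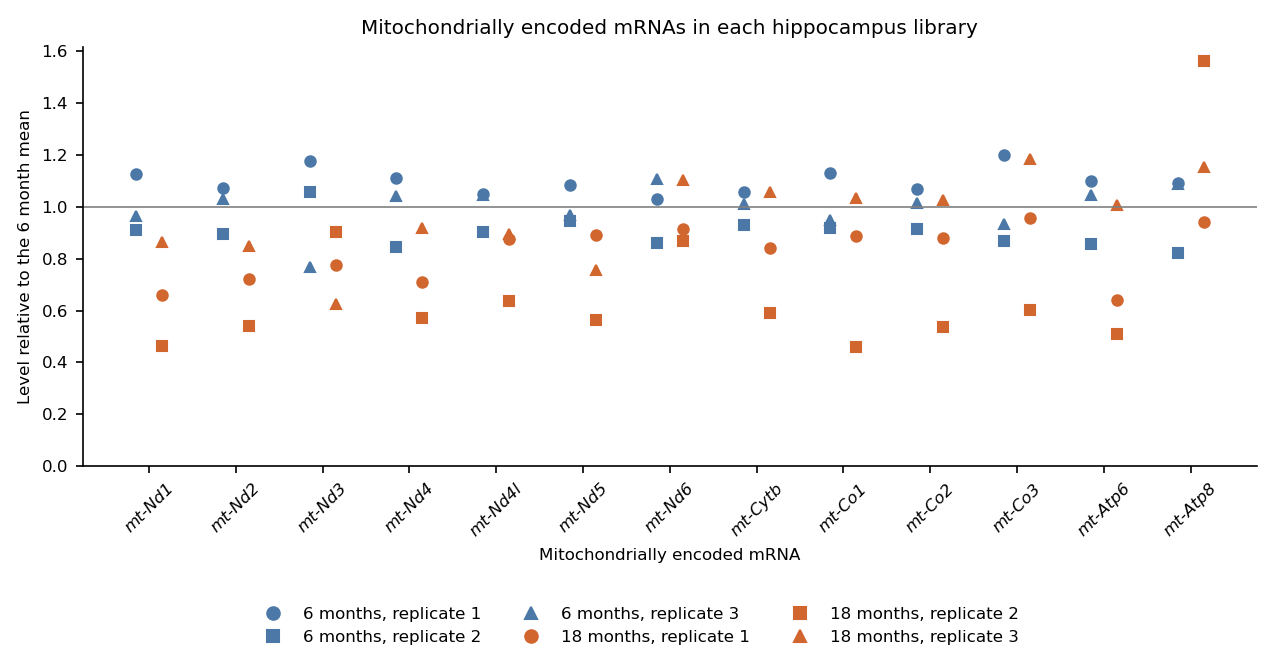
Level of each of 13 mitochondrially encoded mRNAs in each library relative to the mean of the 6 month libraries (linear axis; line at 1), coloured by age and shaped by replicate. Of the 13 mRNAs, 12 had a lower mean at 18 months, and the 18 month replicate 2 is the lowest library for most of them.

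Ribosomal protein genes were higher more often than lower. Of 78 cytosolic ribosomal protein genes, 60 (76.9%, beside 47.2% of all genes) were higher, and 12 lay above without overlap (15.4%) against 1 below. The median log2 change of the list was 0.19, and 0.09 without the 6 month replicate 2. Rps29 had 168, 131 and 177 normalized counts at 6 months and 241, 252 and 183 at 18 months, a log2 change of 0.50 ± 0.21 (SE), and Rpl27a had 75.3, 62.7 and 63.9 at 6 months and 102, 104 and 93.5 at 18 months, a log2 change of 0.57 ± 0.25 (SE). Rpl3, near the peptidyl transferase centre, had 471, 372 and 443 at 6 months and 527, 549 and 509.6 at 18 months, a log2 change of 0.31 ± 0.15 (SE). Their groups were separated, and many ribosomal protein genes have processed pseudogenes that can share their reads, which makes single genes uncertain. Translation factors were divided, with 15 higher and 22 lower of 37. Eif3d, an initiation factor that binds caps, had 68.1, 43.6 and 72.1 at 6 months and 113, 125 and 82.3 at 18 months, a log2 change of 0.80 ± 0.29 (SE), while Eif4e, the cap-binding protein, had 196, 183 and 198 at 6 months and 144, 102 and 172 at 18 months, a log2 change of -0.49 ± 0.22 (SE). Eef2k, which slows elongation, had 28.9, 33.6 and 30.6 at 6 months and 26.6, 8.29 and 2.68 at 18 months, a log2 change of -1.70 ± 0.73 (SE). Without the 18 month replicate 2 the log2 change of Eif4e was -0.29, and without replicate 3 that of Eef2k was -0.9977.

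Splicing factors were divided evenly, with 4 above and 4 below without overlap of 39 (10.3% each, beside 5.03% and 5.93% of all genes). Hnrnpc, which keeps cryptic exons out of mRNA, had 67.7, 101 and 77.3 normalized counts at 6 months and 39.5, 32.6 and 46.5 at 18 months, a log2 change of -1.03 ± 0.31 (SE). Hnrnpa3 had 157, 193 and 152 at 6 months and 89.3, 119.8 and 98.5 at 18 months, a log2 change of -0.70 ± 0.22 (SE), and Sf3b2, a subunit of the branch point complex, had 187, 157 and 166 at 6 months and 232, 273 and 206 at 18 months, a log2 change of 0.47 ± 0.19 (SE). Chromatin genes were higher in 25 of 34. Hdac5, a histone deacetylase, had 93.6, 115 and 112 normalized counts at 6 months and 178, 206 and 125 at 18 months, a log2 change of 0.64 ± 0.23 (SE), and the groups did not overlap. Tet1, which oxidises methylated cytosine, was lower, at 28.3, 57.6 and 18.8 at 6 months and 0, 14.6 and 2.14 at 18 months, a log2 change of -3.15 ± 0.97 (SE); it was listed at 0 in the 18 month replicate 1. Of 14 small nucleolar ribonucleoprotein genes, 7 were higher, with Dkc1 counted among them, and 7 lower.

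Energy metabolism was divided within pathways. Glycolysis and citric acid cycle genes had 5 members above and 5 below without overlap of 32 tested (15.6% each, beside 5.03% and 5.93% of all genes). Dlat, a subunit of pyruvate dehydrogenase, had 124, 123 and 100.2 normalized counts at 6 months and 183, 147 and 190.1 at 18 months, a log2 change of 0.58 ± 0.21 (SE), and Idh3a, the catalytic subunit of mitochondrial isocitrate dehydrogenase, had 69.4, 132 and 94.1 normalized counts at 6 months and 43.1, 20.4 and 51.2 at 18 months, a log2 change of -1.39 ± 0.38 (SE). Sdha, the flavoprotein of complex II, had 654, 789.7 and 808 at 6 months and 572, 503 and 685 at 18 months, a log2 change of -0.36 ± 0.15 (SE), with overlap. In iron handling, Tfrc, the transferrin receptor, had 75.5, 136 and 61.9 normalized counts at 6 months and 29.7, 52.99 and 49.0 at 18 months, a log2 change of -0.998 ± 0.36 (SE). Ireb2, an iron-sensing regulator of Tfrc mRNA, had 53.3, 60.8 and 45.4 at 6 months and 43.1, 19.7 and 11.6 at 18 months, a log2 change of -1.25 ± 0.48 (SE), and both were below without overlap, while Fth1 was above; without the 18 month replicate 3 the log2 change of Ireb2 was -0.83. Txnrd1, thioredoxin reductase, had 26.5, 19.8 and 22.1 at 6 months and 46.7, 47.4 and 39.5 at 18 months, a log2 change of 0.94 ± 0.41 (SE), without overlap.

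Genes of the glucocorticoid response were lower in 14 of 17 (82.4%, beside 52.8% of all genes), with a median log2 change of -0.41 (-0.16 without the 6 month replicate 2); this receptor pathway answers the stress hormone corticosterone. Besides Nr3c1, Tsc22d3, a glucocorticoid-induced gene also called GILZ, had 134, 192 and 155 normalized counts at 6 months and 97.6, 67.7 and 167 at 18 months, a log2 change of -0.61 ± 0.30 (SE); without the 18 month replicate 2 this was -0.31, and the groups overlap. Pdk4, which restrains pyruvate oxidation, had 17.9, 36.8 and 19.3 at 6 months and 0, 28.4 and 2.17 at 18 months, with overlap and a 0 in the 18 month replicate 1. Per1, a clock gene that glucocorticoids induce, had 129.9, 118 and 89.1 at 6 months and 46.8, 119 and 80.3 at 18 months. Clock genes were lower in 12 of 18; the labels give no time of day for tissue collection.

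For signalling, transport and matrix genes, mainly single genes are described. Of 29 Wnt genes, 14 were higher and 15 lower. Without overlap, 2 lay above and 2 below (6.9% each, near the 5.03% and 5.93% of all genes). The 2 above are weakly expressed. Wnt7b, a Wnt ligand, had 6.67, 1.89 and 5.48 normalized counts at 6 months and 24.6, 57.4 and 57.1 at 18 months, a log2 change of 3.08 ± 0.69 (SE). The Wnt receptor gene Fzd2 had 2.09, 0 and 0 at 6 months and 16.2, 8.58 and 3.12 at 18 months, with 2 of its 6 month libraries listed at 0. Of 29 insulin and mTOR genes, 16 were higher; Pik3ca, the catalytic subunit of PI 3-kinase, had 51.0, 30.6 and 46.6 normalized counts at 6 months and 11.1, 13.4 and 24.3 at 18 months, a log2 change of -1.39 ± 0.50 (SE), without overlap. In axonal transport, Kif1b, a motor of synaptic vesicle precursors, had 375, 536 and 396 at 6 months and 179.9, 316 and 361 at 18 months, a log2 change of -0.65 ± 0.24 (SE), or -0.35 without the 18 month replicate 1. Actg1, cytoplasmic gamma-actin, had 1671, 1393 and 1458 at 6 months and 1192, 1045 and 1308 at 18 months, a log2 change of -0.35 ± 0.13 (SE). App, the amyloid precursor protein, had 557, 641 and 646 normalized counts at 6 months and 784, 890.5 and 704 at 18 months, a log2 change of 0.36 ± 0.14 (SE), and was above in all 18 month libraries. In the extracellular matrix, Hapln2, which lies at nodes of Ranvier, had 18.8, 22.8 and 17.8 at 6 months and 23.9, 44.2 and 73.8 at 18 months, a log2 change of 1.08 ± 0.49 (SE), or 0.70 without the 18 month replicate 3. Adamts4, a protease of proteoglycans, had 35.2, 10.8 and 8.84 at 6 months and 0, 4.90 and 3.87 at 18 months, a log2 change of -2.40 ± 0.96 (SE), listed at 0 in the 18 month replicate 1; without that library the log2 change was -1.59.

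Complement and antigen presentation genes were higher more often than lower. Of 17 complement genes 13 were higher (76.5%), with 3 above without overlap (17.6%, beside 5.03% of all genes) and 0 below. The list is not independent of others: C1qa, C1qb, C1qc and Itgam are also microglial markers, and C4b and Serping1 also reactive astrocyte genes. The median log2 change was 0.52, but 0.27 without the 18 month replicate 2 and 0.32 without the 6 month replicate 2. C4b, the complement component 4 known as a gene of reactive glia, had 32.5, 37.5 and 37.4 normalized counts at 6 months and 42.3, 160.1 and 106 at 18 months, a log2 change of 1.30 ± 0.42 (SE). Its replicates 2 and 3 at 18 months were well above the other group and replicate 1 just above it. Globin levels were also highest in replicates 2 and 3, and the part of blood in the C4b values was not tested. Of 15 MHC class I genes, 12 were higher (80%, beside 47.2% of all genes). Of them, 1 was separated, which is 6.67% of the list and near the 5.03% of all genes. It was Tap2 of the peptide transporter, at 7.16, 15.1 and 13.3 at 6 months and 45.3, 20.1 and 15.6 at 18 months. B2m, the light chain of MHC class I, had 165, 168 and 223 at 6 months and 164, 178 and 158 at 18 months. Interferon-stimulated genes were evenly divided, 10 higher and 11 lower, with 0 separated in either direction. Gabarapl1, an autophagosome protein, was higher, at 718, 689.5 and 695 normalized counts at 6 months and 821, 949.6 and 831 at 18 months, a log2 change of 0.30 ± 0.13 (SE), and 26 of 41 lysosomal and autophagy genes were higher. Of 20 senescence genes 16 were higher (80%, beside 47.2% of all genes), 0 without overlap. Their median log2 change was 0.07, and -0.01 without the 18 month replicate 2. Cdkn1a, the p21 inhibitor of the cell cycle, had 12.4, 13.7 and 17.5 at 6 months and 14.1, 27.1 and 10.2 at 18 months.

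**Figure D5:**
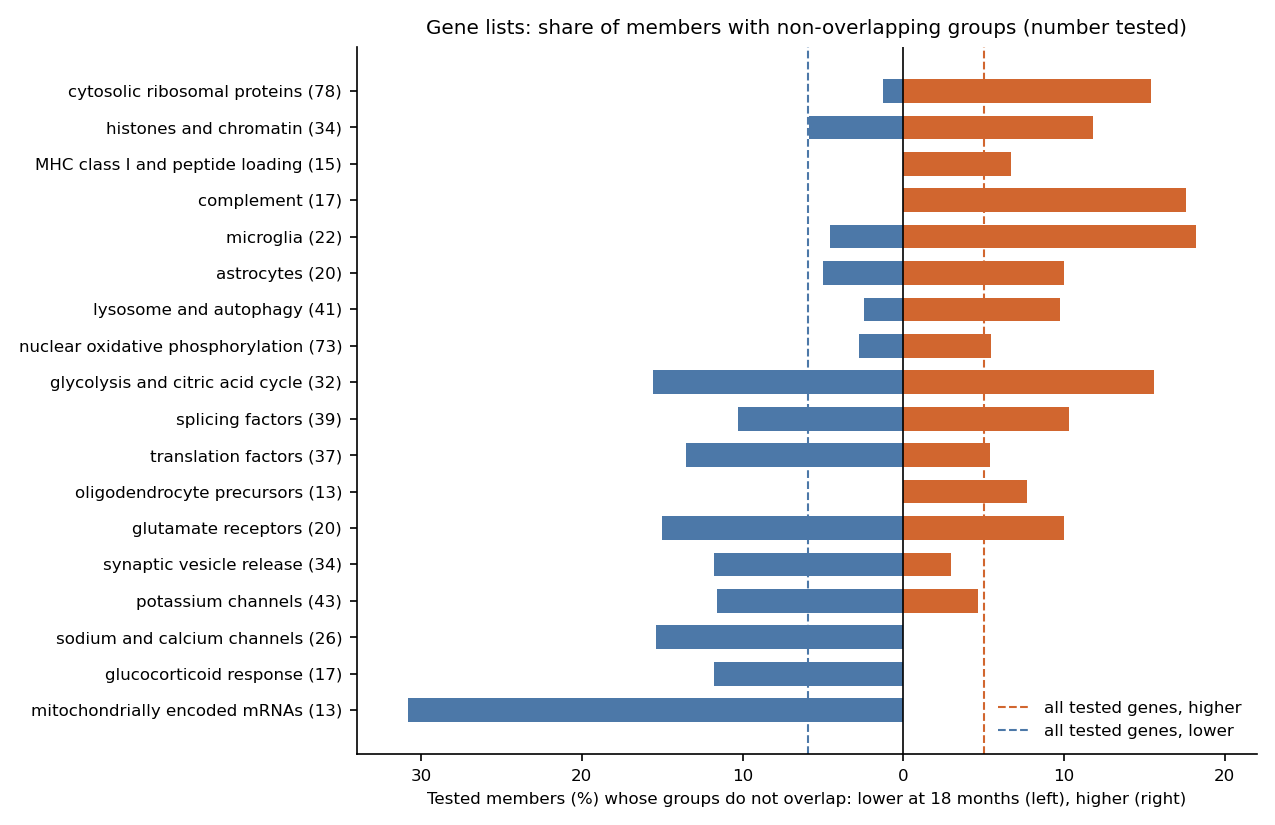
Percent of tested members of 18 gene lists whose values do not overlap between groups, below at 18 months (left) or above (right), with the number tested in brackets; dashed lines give the same share over all tested genes. Lists were chosen to show both directions: mitochondrial mRNAs lie farthest left, and microglia and complement lists, which share members, farthest right.

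In the other groups, too, 0 members passed the adjusted threshold in limma's test. Of 31 proteasome genes 17 were higher, of 34 chaperone genes 19, of 30 cholesterol genes 18 and of 34 antioxidant genes 18. The summed level of the cholesterol list lay above in all 18 month libraries. This list counts Apoe, an abundant gene that lay above in all 18 month libraries too, and its part in the sum was not tested. DNA repair genes were lower in 19 of 29 (65.5%, beside 52.8% of all genes). Without overlap, 3 lay below (10.3%, beside 5.93% of all genes) and 2 above (6.9%, beside 5.03%). Their median log2 change was -0.07, but 0.06 without the 6 month replicate 2. Cytokine genes were higher in 9 of 15. In lists of neuropeptides and of cytoskeleton genes, 14 of 26 and 15 of 33 were lower; the summed level of the cytoskeleton list lay below in all 18 month libraries, at 22360 to 23000 against 23120 to 23700 normalized counts.

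Single zeros limit these counts. Psmc2, a proteasome subunit that every cell needs, was listed at 0 in the 18 month replicate 2 and at 83.0, 156 and 165 at 6 months, so a 0 may be a failed estimate. In all, 61 genes were listed at 0 in all 18 month libraries with at least 1 in every 6 month library, among them Ddx6 (named after its values were seen), at 40.3, 25.03 and 32.8 at 6 months, and 8 genes were listed the other way. For these genes no fold is given.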

How the data were processed

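Bulk RNA-seq of whole hippocampus was analysed for 3 libraries of 18 months and 3 of 6 months. The deposited table holds the authors' normalized counts, which are a signal per gene and library and not raw counts, per the file headers. As tools, kallisto, DESeq and DESeq2 are listed in the submitters' processing notes, and as builds GRCm39 and mm10, all without roles; how the counts were normalized is not given in the sources used here. The table's own fold changes and p-values were not used. An entry without a gene name (0.0233% to 0.0335% of each library) was left out, and 22 symbols looked like dates. The microglia samples of the series were not used here. Sequencing depth is unknown, so no interval for counting error is given.

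Values were analysed as log2(normalized count + 1) with limma 3.58.1 in R 4.3.3 (moderated test with a mean trend, two-sided), over 13491 genes at 1 or more in 3 or more libraries, with Benjamini-Hochberg adjustment and a threshold of 0.05. The procedure was tested on simulated data. The 56 gene lists are described by counts and medians. The members and lists were chosen with earlier results of these data known. Genes were named by 3 rules: up to 4 members with the smallest unadjusted p of each list described; up to 10 per direction with groups that do not overlap, a mean at or above the median gene and the smallest unadjusted p; and fixed genes (the first 2 of each cell type list and well-known markers) whatever their result. Alternatives covered the pseudocount, the filter, the scaling, the variance model, a block for replicate number and leaving out each library. Some genes that these rules name are not reported here.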

Additional observations from a re-analysis of the deposited data

How the results depend on the processing

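Under 11 alternatives that kept all libraries, limma again called 0 genes in either direction at an adjusted p under 0.05, with a smallest adjusted p from 0.106 to 0.248; at an unadjusted p under 0.05 there were 245 to 328 genes higher and 294 to 479 lower. One of these, rescaling the nuclear genes to one total, was chosen after seeing the data. When each library was left out in turn, the calls ranged from 0 to 1 higher and stayed at 0 lower: without the 6 month replicate 1, Lrrc17 was higher, with a log2 change of 2.19 and an adjusted p of 0.0284 by limma. Genes at an unadjusted p under 0.05 then ranged from 234 to 379 higher and 277 to 634 lower, the lowest number lower coming without the 6 month replicate 2 and 286 without the 6 month replicate 3. Genes with non-overlapping groups ranged from 1155 to 1521 above and 1393 to 1744 below, where fewer libraries make separation easier. None of the 92 genes whose log2 change was recomputed changed sign under any of the alternatives run. Genes named for a small p or for groups that do not overlap can hardly change sign, so their choice largely set this outcome. Many list medians did change sign on leaving out a library, among them those of astrocytes, reactive astrocytes, glutamate receptors, translation factors and senescence genes. The activated microglia median went from 0.12 to -0.005 without the 18 month replicate 2, and the interneuron median from 0.06 to -0.03 without the 6 month replicate 3. Of the medians of gene lists, 58 of 952 alternative values moved beyond the spread between libraries, 49 of them on leaving out a library. With replicate number as a block, limma called 0 genes, and the smallest adjusted p was 0.11. At an unadjusted p under 0.05, 328 genes were then higher and 479 lower. Deviations from each age group's gene means correlated at 0.00941 to 0.0142 between same-numbered libraries of the 2 ages. Between differently numbered libraries they correlated at -0.0515 to 0.0418, so the numbers give no evidence of pairing. Depth is unknown and zeros are frequent in the 18 month replicate 1, which limits statements on weakly expressed genes.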
